A study of Mus musculus with 11 samples.

Results

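The promoters described here were the 8998 autosomal promoters that overlapped none of the 14841 CpG islands the authors listed and whose mean coverage reached 10 in the amphetamine and in the control group. They were chosen from 24391 promoters of 2000 bp, which ran from 1500 bp upstream of a gene start to 500 bp downstream on the mm10 mouse genome. On the autosomes 10344 promoters overlapped no listed island, of which 1346 fell below the coverage minimum, and 12783 island promoters that passed the same minimum are given beside them. DNA methylation was measured by reduced representation bisulfite sequencing in whole pancreas of 11 wild-type C57BL/6N mice at postnatal day 0. Of these, 5 mice (3 females, 2 males) came from dams injected with amphetamine at 10 mg/kg on embryonic days 14.5, 15.5 and 16.5. The other 6 mice (3 females, 3 males) carried the label Saline and are called controls. The labels do not tie mice to dams, so that the tests measure the spread between pups, some of which may be littermates. The deposited tables give for each promoter the mean, SD, lowest and highest mouse of a group, which are the authors' values throughout, and levels of single mice were not analysed here. Windows of 1065 of the promoters (11.8%) overlapped another of them, and 424 (4.71%) had the same values as a neighbour because they held the same measured sites. The 262 promoters just above the coverage minimum (lower group mean from 10 to under 12) had a control median of 80% and the 302 just below it (8 to under 10) one of 80%.

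CpG islands are stretches rich in C followed by G that mark most promoters of housekeeping and developmental genes and are usually kept free of DNA methylation. Promoters outside islands have few CpG sites, belong more often to genes used in a single tissue, and can be methylated in cells that do not use the gene. A CpG is methylated or not in each copy of DNA, so the level of a site is the share of its reads that were methylated. The level of a promoter is an average over its measured sites. In bulk pancreas, which holds acinar, duct, islet, blood, vessel and connective tissue cells, a partial level cannot be told apart as partial methylation in every cell or as full methylation in some of them. A partial level can also come from methylated and unmethylated sites within the same window. Bisulfite also does not separate methylcytosine from hydroxymethylcytosine.

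Reads start at the sites cut by MspI (CCGG) and TaqI (TCGA), so only the CpG sites close to such a site were measured. For 7 promoters to which the results return, the 200 bases upstream of the gene start with the most CpG sites within 50 bp of a cut site, and with no annotated exon, are printed from the GRCm38 (mm10) reference, 5′ to 3′ on the strand of the gene. Capitals mark all CpG sites, so that an MspI site reads cCGg and a TaqI site tCGa, and not every capital lies within reach of reads. Plau, which encodes urokinase, lay at 0% methylation in every mouse (chr14:20836351-20836550, plus strand), and its stretch held 11 CpG sites, 7 of them within reach. Ppy and Ghrl encode the islet hormones pancreatic polypeptide and ghrelin and lay near opposite ends of the scale. The stretch of Ppy (chr11:102102599-102102798, minus strand) held 9 CpG sites, 8 within reach, and that of Ghrl (chr6:113720176-113720375, minus strand) held 3, all within reach. Cela3b, which encodes an elastase of acinar cells, was the least methylated of the acinar genes (chr4:137430541-137430740, minus strand, 2 CpG sites, both within reach). Fam96a (chr9:66125419-66125618, plus strand, 9 CpG sites, all within reach) and Dmrtc2 (chr7:24869289-24869488, plus strand, 7 CpG sites, 3 within reach) are shown for the comparison of treatment and H2-M3 (chr17:37270020-37270219, plus strand, 4 CpG sites, 3 within reach) for that of sex.
Plau: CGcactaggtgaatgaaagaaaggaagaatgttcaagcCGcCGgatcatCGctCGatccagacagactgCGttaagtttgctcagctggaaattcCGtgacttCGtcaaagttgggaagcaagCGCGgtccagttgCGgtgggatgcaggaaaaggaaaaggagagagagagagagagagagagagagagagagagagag
Ppy: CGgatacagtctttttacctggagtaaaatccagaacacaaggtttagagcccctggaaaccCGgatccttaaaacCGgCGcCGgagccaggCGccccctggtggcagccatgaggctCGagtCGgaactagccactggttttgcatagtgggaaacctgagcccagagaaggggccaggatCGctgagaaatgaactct
Ghrl: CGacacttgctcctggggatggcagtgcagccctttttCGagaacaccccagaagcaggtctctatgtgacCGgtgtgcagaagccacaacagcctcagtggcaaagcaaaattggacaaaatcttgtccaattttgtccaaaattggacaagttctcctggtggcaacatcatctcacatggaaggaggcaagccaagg
Cela3b: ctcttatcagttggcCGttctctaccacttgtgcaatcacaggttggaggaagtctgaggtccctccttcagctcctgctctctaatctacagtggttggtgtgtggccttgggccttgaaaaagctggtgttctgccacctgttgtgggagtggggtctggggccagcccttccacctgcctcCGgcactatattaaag
Fam96a: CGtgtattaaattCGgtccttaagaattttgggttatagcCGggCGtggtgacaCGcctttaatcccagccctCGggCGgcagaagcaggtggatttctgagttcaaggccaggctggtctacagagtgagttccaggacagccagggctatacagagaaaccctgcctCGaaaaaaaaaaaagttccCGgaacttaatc
Dmrtc2: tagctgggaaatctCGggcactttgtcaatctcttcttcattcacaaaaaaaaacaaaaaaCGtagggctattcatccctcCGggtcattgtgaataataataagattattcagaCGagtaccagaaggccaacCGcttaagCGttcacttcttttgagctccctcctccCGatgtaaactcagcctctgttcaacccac
H2-M3: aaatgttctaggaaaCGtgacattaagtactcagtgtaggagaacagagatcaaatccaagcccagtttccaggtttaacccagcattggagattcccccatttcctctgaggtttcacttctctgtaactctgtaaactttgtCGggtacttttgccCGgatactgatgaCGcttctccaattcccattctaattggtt

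In controls the median promoter without an island was methylated at 72.0%, with an interquartile range from 29.8% to 87.5%. Island promoters had a median of 2.62% and an interquartile range from 1.55% to 5.33%. Of the promoters without an island, 1888 (21.0%) were below 20%, 3564 (39.6%) lay from 20% to 80% and 3546 (39.4%) were above 80%. Among island promoters 94.1% were below 20% and 0.845% above 80%. In the amphetamine group the median was 72.6%, with 20.9% of the promoters below 20% and 39.8% above 80%, so the shape was close to that of controls. Where all 11 mice had reads, which was so for 7397 promoters, 1015 were below 20% in each mouse, 559 were above 80% in each mouse, 18 were at 0% throughout and 8 at 100% throughout. These levels carry no test, since island overlap was the rule of choice and promoters are not replicates of a condition.

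**Figure D1:**
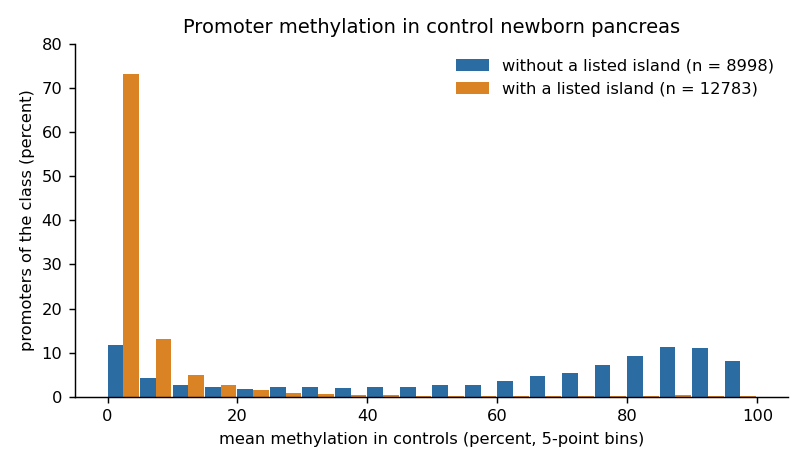
Promoters by mean methylation in 6 control mice, in bins of 5 points, as a percent of each class. Promoters without a listed island (8998, blue) peaked at both ends, with 11.7% in the lowest bin and 11.3% between 85% and 90%, and island promoters (12783, orange) lay mostly in the lowest bin (73.2%).

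The mice of a group were farther apart here than at island promoters. Over the 6 controls the authors' SD had a median of 11.1 percentage points, against 2.12 at island promoters, and over the 5 amphetamine-treated mice it was 9.75 against 1.86. The highest and lowest control mouse were more than 50 points apart at 1910 promoters (21.2%), against 1.28% of island promoters. Median coverage, read here as methylation calls summed over the CpG sites of a promoter, was 71.5 in controls and 86.6 in amphetamine-treated mice, against 352.5 and 438.4 at island promoters. The spread was smaller at higher coverage, from a median SD of 16.2 points where mean control coverage was 10 to 20 to 5.45 points where it was 200 or more. It was also widest at partly methylated promoters, with 21.6 points at means of 40% to 60%, 2.42 points below 5% and 3.42 points from 95%. The most variable well covered promoter with a gene symbol was that of Chrna1, which encodes a subunit of the muscle acetylcholine receptor, at 70.0% ± 46.9 (SD, n = 6) in controls with mice from 0% to 100%. Its 5 amphetamine-treated mice lay between 92.5% and 100%. Abca12, a lipid transporter of skin, also ran from 0% to 100% in controls (74.5% ± 41.7, n = 6) and from 44.8% to 100% after amphetamine (67.5% ± 20.1, n = 5). Klf17 and Abhd16b were also among the 5 most variable, with control SDs of 40.2 and 38.8 points. These 5 were chosen by their SD in controls alone, which favours a smaller spread in the amphetamine group, so the 2 spreads are not a comparison of treatment.

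Methylation was lower at promoters with more CpG sites. Observed over expected CpG, which compares the number of CpG sites with that expected from the C and G content, had a median of 0.273, against 0.614 at island promoters. Where this ratio was below 0.2 the median control methylation was 81.0% (2019 promoters), and it was 76.8%, 63.0%, 21.1% and 6.01% in the next bins, the last from 0.5 upward (548 promoters). In that last bin 63.0% of the promoters were below 20%, against 3.91% in the first. By the number of CpG sites within reach of reads, the medians ran from 83.3% with under 6 sites (1274 promoters) to 3.12% with 48 or more (167 promoters). GC content gave a shallower slope, from 84.6% below a GC content of 40% (538 promoters) to 34.3% at 55% or more (604 promoters). Spearman's rho with control methylation across the 8998 promoters was −0.44 for the number of CpG sites, −0.40 for the sites within reach, −0.37 for observed over expected CpG, −0.31 for GC content and −0.27 for coverage. These are descriptions, because base composition, coverage and the number of measured sites change together.

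The list of islands left CpG-rich promoters in the class. A stretch of 200 bp with GC content above 50% and observed over expected CpG above 0.6 was present in 4594 (51.1%) of the 8998 windows and in 99.8% of island promoters. Promoters with such a stretch had a median of 51.0% and included 1604 of the 1888 below 20%. The 4404 without one had a median of 78.9%, and 284 of them (6.45%) were below 20%. Distance to the nearest listed island also went with the level. Within 1 kb of an island the median was 24.6% (495 promoters), from 1 to 5 kb it was 58.1% (861 promoters), and beyond 100 kb it was 79.4% (2485 promoters). The TATA box in its letters TATAAA, searched 40 to 20 bp upstream of the gene start, was found in 1.31% of 8771 annotated promoters without an island, in 0.679% of island promoters and in 0.996% of all promoters. Its reverse complement TTTATA was found at the same place in 0.479%, 0.134% and 0.346%. Among protein-coding genes TATAAA was present in 2.35% without an island and 0.708% with one.

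**Figure D2:**
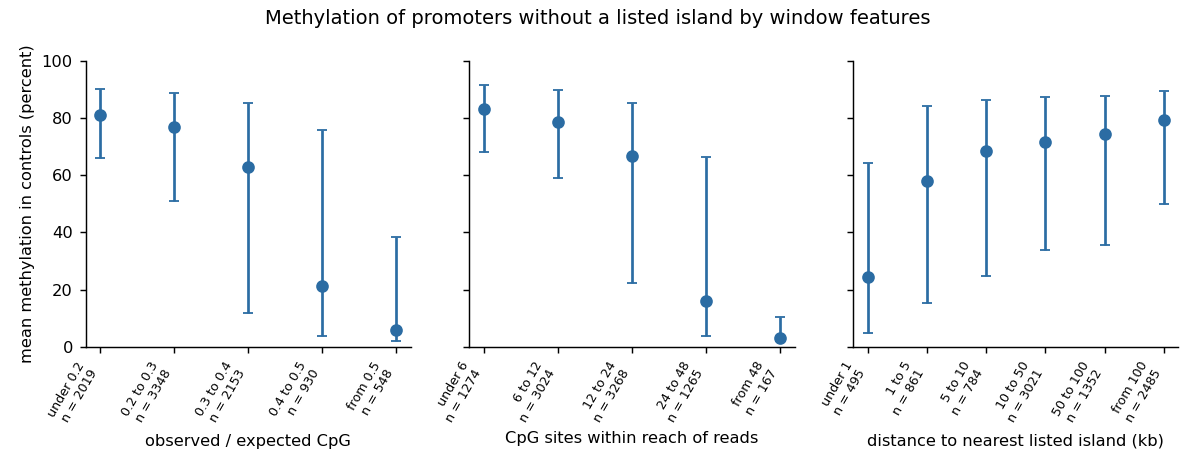
Median control methylation (points) and interquartile range (bars) of promoters without a listed island, binned by observed over expected CpG, by CpG sites within reach of reads and by distance to the nearest listed island. Medians fall from 81.0% to 6.01% with CpG content and rise from 24.6% to 79.4% with distance from an island.

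The kind of gene separated the promoters further. Protein-coding genes made up 3875 of them (43.1%) with a median of 43.3%, and 36.8% of these were below 20%. Processed pseudogenes, which are copies of mRNAs put back into the genome and usually lack a promoter of their own, numbered 1517 with a median of 86.1%, and 1.78% of them were below 20%. The median was 68.1% for 677 lincRNA genes, 70.9% for 598 antisense genes, 81.8% for 515 microRNA genes, 80.3% for 263 snRNA genes, 83.9% for 255 snoRNA genes and 84.8% for 191 unprocessed pseudogenes. The median number of reachable CpG sites was 14 for protein-coding genes, 13 for microRNA genes and 11 for processed pseudogenes, lincRNA genes and antisense genes, and its part in these levels was not tested. Among island promoters the medians were 2.56% for protein-coding genes, 2.64% for microRNA genes and 45.7% for 145 processed pseudogenes.

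In the medians of the classes, low methylation at the promoter was not seen in the 5 kb tiles around it. The nearest tiles of promoters below 20% lay at median distances of −6.54 and 5.54 kb from the gene start. The DNA directly beside the promoter window was not measured on its own. Around promoters below 20%, the nearest upstream and downstream 5 kb tiles with no listed island had control medians of 77.8% (906 tiles) and 78.5% (964 tiles), against 4.15% at the promoters themselves. Tiles a further 5 kb out were at 80% and 80.9%. Around promoters above 80% the nearest tiles were at 83.2% and 82.6%, and around those between at 79.5% and 78.0%, so that the medians of the 3 classes were within 6 points of each other in these tiles. Methylation over the whole gene, for 2362 protein-coding genes of at least 10 kb, had a median of 53.7% where the promoter was below 20% (1016 genes), 68.0% where it lay between (932 genes) and 77.4% where it was above 80% (414 genes). The gene lay above its promoter in 96.9% of the first class, 68.6% of the second and 14.5% of the third. The promoter levels chose these classes, and the gene tables include the last 500 bp of the promoter window, downstream of the gene start. Only the tiles are therefore separate stretches of DNA.

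**Figure D3:**
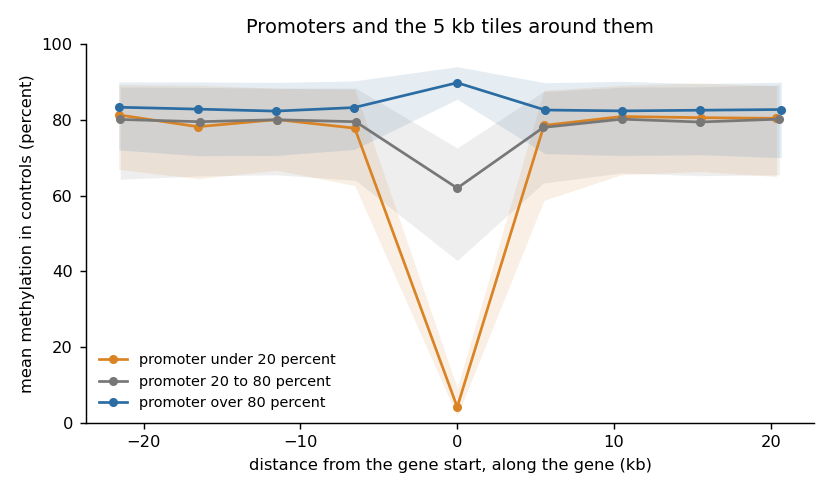
Median control methylation (points, with interquartile range as shading) of promoters without a listed island at 0 kb and of 5 kb tiles without a listed island around them, by distance from the gene start in kb. The class below 20% dips to 4.15% at the promoter while all 3 classes lie between 77.8% and 83.3% in the tiles.

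Genes of the exocrine pancreas were mostly outside islands. Acinar cells make the digestive enzymes and fill most of the pancreas. Of 38 listed acinar genes 15 had a promoter in the table, of which 13 were without an island, and their control median was 69.0%. Cela3b was the least methylated at 15.5% ± 15.5 (SD, n = 6), with mice between 0% and 40%. The lipase relatives Pnliprp2 and Pnliprp1 followed at 26.9% ± 19.1 and 30.8% ± 35.7 (4 mice). Colipase (Clps) was at 50.7% ± 16.4 and carboxyl ester lipase (Cel) at 57.2% ± 21.6. Carboxypeptidase B1 (Cpb1) was at 69.0% ± 19.2 and the trypsin inhibitor Spink3 at 75% ± 31.9 (4 mice). Above 80% lay pancreatic lipase (Pnlip, 85.0%), amylase (Amy2a5, 89.3%), elastase 1 (Cela1, 90.3%), chymotrypsin-like protease (Ctrl, 96.1%) and syncollin (Sycn, 100% in each of 4 control mice). Coverage of these named genes was low, from 16.3 (Cela1) to 93.3 (Cpb1) in controls, and the ranges of neighbouring genes overlapped.

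Hormone and secretory granule genes of islet cells divided into low and high. Of 26 listed islet genes in the table, 16 had an island promoter, with a median of 3.15%, and the 10 without one had a median of 26.3%. Ppy was at 0.758% ± 1.86 in controls (n = 6, 0% to 4.55%). Chromogranin A (Chga) at 1.90% ± 2.24, prohormone convertase 2 (Pcsk2) at 2.58% ± 1.71, secretogranin II (Scg2) at 4.80% ± 8.36 and prohormone convertase 1 (Pcsk1) at 8.37% ± 8.41 were also low in all 6 control mice, none above 20.5%. The remaining genes were Ucn3, a peptide of beta cells (44.2% ± 17.6), secretogranin III (Scg3, 48.7% ± 43.5) and G6pc2, an islet glucose-6-phosphatase (81.5% ± 20.9). Glucagon (Gcg) was at 90.0% ± 22.4 in the 5 control mice with reads and ghrelin (Ghrl) at 99.0% ± 2.55 in 6. Ppy and Ghrl, the lowest and highest, did not overlap in controls (0% to 4.55% against 93.8% to 100%). The insulin genes Ins1 and Ins2 had no promoter in the table.

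Lists of other cell types spanned the same scale. The 9 mesenchyme and smooth muscle genes without an island had a median of 22.1%, with calponin (Cnn1) at 5.04% ± 7.87 and the receptor Pdgfrb at 11.4% ± 6.23 lowest, and collagen III (Col3a1, 50.5% ± 45.2) and matrix Gla protein (Mgp, 82.8% ± 9.40) highest. For 8 endothelial genes the median was 59.1%, from Robo4 (8.60% ± 8.77) and Esam (8.97% ± 9.03) to von Willebrand factor (Vwf, 77.6% ± 7.67) and Emcn (82.8% ± 14.2). The 7 duct genes had a median of 43.4%, with the chloride channel Cftr at 13.7% ± 6.47 among the 2 lowest, while Cldn4 (60.7% ± 26.8) and the water channel Aqp1 (70.3% ± 44.6, 5 mice) were highest. In 17 leukocyte genes the median was 71.7%, from Cd37 (31.1% ± 8.82) and Itgam (37.3% ± 49.2, 5 mice) to Csf1r (93.0% ± 12.1) and Cd68 (93.3% ± 12.1), with none below 20%. The 2 erythroid genes were the receptor Epor at 19.8% ± 23.7 and the blood group gene Rhd at 51.5% ± 17.0 (5 mice).

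Lists of tissues outside the pancreas had medians from 74.7% to 84.4%. Skeletal and heart muscle genes (17) had a median of 74.7%, with alpha-actinin 2 (Actn2, 4.42% ± 3.88) and skeletal actin (Acta1, 23.7% ± 5.40) lowest and Casq1 (86.7% ± 32.7) and Myl1 (95% ± 6.2) highest. Stomach and intestine genes (7) had a median of 78.2% from Fabp2 (69.6% ± 22.0) and Apoa4 (74.3% ± 17.2) to Atp4b (93.8% ± 9.86) and Alpi (100% in 4 mice). Liver genes (9) had a median of 84.4%, from the clotting factor gene F7 (49.8% ± 18.8) and G6pc (55.1% ± 45.6) to Fgb (90.0% ± 13.5) and F10 (100% in 5 mice). Epidermis genes (9) had a median of 77.2%, with Tgm1, the skin transglutaminase, at 6.34% ± 6.36, Krt16 at 50% in each of 4 mice, and Krt10 (92.0% ± 5.18) and Krt6b (97.5% ± 6.12) highest. Sperm and testis genes (14) had a median of 81.5%, with the protamine genes Prm1 and Prm2 lowest at the same 11.8% ± 14.0 (5 mice), because their windows overlap and held the same measured sites, and Odf3 (95% ± 11.2, 5 mice) and Tssk1 (97.0% ± 5.73) highest. All genes of these cell type lists were protein-coding, a class in which 36.8% of the promoters without an island were below 20%. Below 20% were 5 of 10 islet, 4 of 9 mesenchyme, 1 of 2 erythroid, 2 of 7 duct, 2 of 8 endothelial and 3 of 14 sperm and testis genes. The same was true of 1 of 9 epidermis, 1 of 13 acinar, 1 of 17 muscle, 0 of 7 stomach and intestine, 0 of 9 liver and 0 of 17 leukocyte genes. These lists are small, and their shares were not tested. Control coverage was low at some of the named extremes, such as F10 (11.2), Alpi (11.8), Aqp1 (12.0) and Krt16 (14.3).

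**Figure D4:**
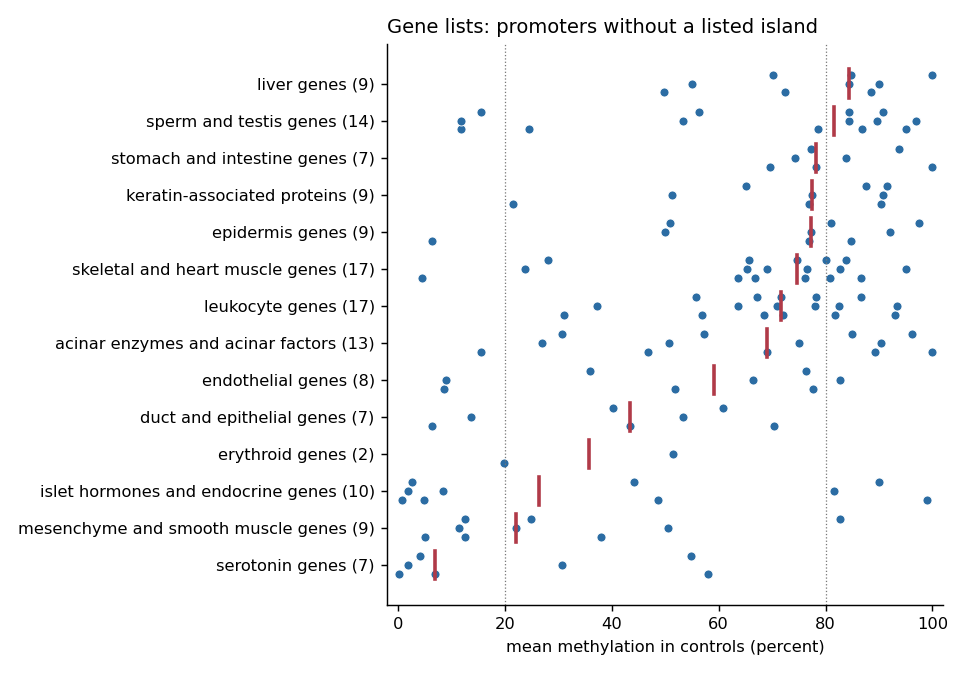
Mean control methylation of each gene of 14 lists whose promoter had no listed island (blue points, number in brackets), with list medians (red lines) and dotted lines at 20% and 80%. Medians run from 6.93% (serotonin genes) to 84.4% (liver genes), and most lists reach across much of the scale.

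Large gene families stood at both ends of the scale. Zinc finger genes with the symbol Zfp, which encode DNA-binding proteins, numbered 90 without an island and had a median of 5.38%, with 60 below 20% and 7 above 80%. Zfp933 was at 0% in every mouse and Zfp946 at 0% in 6 controls, while Zfp473 (5 mice) and Zfp775 (6 mice) were at 100% in controls. Olfactory and vomeronasal receptors, which serve the nose, numbered 99 with a median of 85.3%, of which 0 were below 20% and 64 above 80%. Their lowest were Olfr336-ps1 (24.1% ± 28.5) and Olfr658 (31.5% ± 29.8, 5 mice), and Olfr632 and Vmn1r67 (4 mice) were at 100% in controls. Keratin-associated proteins of hair (9) had a median of 77.4%, from Krtap17-1 (21.6% ± 34.8) and Krtap14 (51.3% ± 25.3) to Krtap26-1 (90.7% ± 10.9) and Krtap31-1 (91.5% ± 5.76). For 307 microRNA genes the median was 82.2%, with Mir1956 at 0% in 5 control mice and Mir7671 at 0.169% in 4, and Mir7029 (4 mice) and Mir7667 (6 mice) at 100%.

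The 10 least methylated well covered promoters, all at 0% in 6 controls, were those of Cars (a tRNA synthetase), Sptssb (a subunit of sphingolipid synthesis), Hapln4 (a link protein of the extracellular matrix), Slc1a5 (an amino acid transporter), Emc9 (a subunit of a membrane insertion complex), BC017643, Zfp933, Plau, Syngr4 and Tmem143. Syngr4 and Tmem143 have overlapping windows and the same values. Hapln4, Zfp933 and Plau were at 0% in all 11 mice, and with summed coverages of 2008, 2366 and 2699 a value of 0 allows up to 0.149%, 0.127% and 0.111%, for counting error only. In the amphetamine group the highest mouse was at 13.4% (Syngr4 and Tmem143), 8.33% (Slc1a5), 7.69% (Emc9), 5.45% (BC017643), 4.76% (Cars) and 2.08% (Sptssb). Because these promoters were chosen for the lowest control means, the amphetamine group could only be equal or higher, and no effect of treatment can be read from them.

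The comparison of amphetamine with control mice asked whether prenatal exposure moved promoter methylation in the newborn pancreas. No promoter without an island passed adjusted p under 0.05 among the 8994 tested by limma, in which 4 of 24360 promoters (0.0164%) and 0.013% of autosomal promoters passed. The smallest adjusted p was 0.103, and 0 passed when the prior variance of limma followed the mean methylation. The thresholds of the study add further limits to an adjusted p under 0.05, so they could only leave 0 here. With an unadjusted p under 0.05, 461 (5.13%) passed, 219 higher and 242 lower after amphetamine, against 4.11% of all promoters, 4.13% of autosomal promoters and 3.49% of island promoters. The median difference was 0.00 percentage points, the median size of the difference 4.57 points and its 95th percentile 23.6 points, against 0.969 and 5.47 points at island promoters. A difference of over 25 points was seen at 365 promoters (4.06%), against 0.133% of island promoters. The larger SDs and lower coverage given above stood beside these differences, and their part was not tested. Coverage summed over the promoters was 1.23-fold higher in the amphetamine group.

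The groups did not overlap at 25 of 7397 promoters with reads in all mice, 10 higher and 15 lower after amphetamine (0.135% and 0.203%), and these shares were 0.228% and 0.167% over all promoters and 0.238% and 0.169% over autosomal promoters. Of the 25, 13 belonged to protein-coding genes and 5 to processed pseudogenes, with differences of 3.10 to 67.4 points.

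Fam96a, an assembly factor of iron-sulfur proteins whose upstream stretch is printed above, had the smallest p among named genes higher after amphetamine. Its control mice lay between 14.3% and 31.7% (24.4% ± 6.68, n = 6) and its amphetamine-treated mice between 40.8% and 46.6% (43.6% ± 2.61, n = 5). Every treated mouse was above every control, and the difference of 19.1 ± 3.08 points (SE) had an adjusted p of 0.241 by limma. The gene as a whole was at 48.6% in both groups, while the nearest downstream 5 kb tile without an island was at 83.7% after amphetamine and 63.9% in controls. Rab19, a small GTPase, was at 5.74% ± 7.65 (0% to 16.5%) in controls and 28.9% ± 7.48 (19.8% to 40.2%) after amphetamine, again without overlap, with adjusted p = 0.409 by limma. Over the whole gene the order was the other way (25% ± 13.3 after amphetamine, 37.6% ± 13.1 in controls). The nearest downstream tile of Rab19 was also lower, at 83.2% after amphetamine and 94.5% in controls, and the nearest upstream tile was at 24.2% and 24.1%. Differences in these tiles were not tested. Pcdhga2, a clustered protocadherin, was at 7.14% ± 8.25 in controls and 31.2% ± 10.5 after amphetamine, with overlap between 15.4% and 16.7% and coverage of 33.0 and 97.2. Hist1h2aa and Hist1h2ba, a histone pair of the testis with overlapping windows, shared the values 42.5% ± 4.09 (36.9% to 46.6%) and 53.2% ± 4.10 (46.1% to 56.8%), with a narrow overlap, at the highest coverage of these genes (481.3 and 519.4). Adjusted p was 0.710 for these last 3 by limma.

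The 5 named genes lower in mean after amphetamine were led by Dmrtc2, a germ cell factor of the DMRT family. Dmrtc2 was at 89.3% ± 8.96 in controls (73.3% to 100%, n = 6) and 64.3% ± 10.8 after amphetamine (46.4% to 72.0%, n = 5), without overlap, a difference of −25 ± 5.72 points with adjusted p = 0.710 by limma. The whole gene was at 81.2% in controls and 80.5% after amphetamine. The difference was −34.6 points for the monooxygenase gene Fmo9, at a coverage of 13.8 in controls and 20.0 after amphetamine, −28.2 points for Eva1a, −24.4 points for Adam7, an epididymal gene, and −14.0 points for the antisense gene Fam219aos. Their groups overlapped, and adjusted p lay between 0.892 and 0.955 by limma. The smallest p of all were those of 2 predicted microRNA genes, Gm25110 (94.8% ± 7.19 in 5 controls, 59.4% ± 5.45 in 4 treated mice) and Gm25303 (99.6% ± 1.02 and 81.6% ± 6.33), both with adjusted p = 0.103 by limma, and mean coverages between 13.4 and 51.2. Chosen after their values were seen, B230216G23Rik had the largest difference without overlap, with 1.55% ± 3.8 (0% to 9.30%) in controls and 69.0% ± 28.8 (40% to 100%) after amphetamine at a coverage of 24.5 and 35.8, with adjusted p = 0.266 by limma. Plvap, which forms the diaphragms of endothelial pores, was also named after its values were seen, at 51.8% ± 7.59 (40.3% to 61.0%) in controls and 70.9% ± 7.78 (62.4% to 80.4%) after amphetamine, with adjusted p = 0.757 by limma. Among the cell type lists, no other gene with reads in all mice had groups without overlap.

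No pancreas gene was called between the treatment groups. In 13 lists of cell types and pathways with 129 promoters, 0 passed the adjusted test for treatment and 13 (10.1%) an unadjusted p under 0.05, beside 5.13% of all promoters without an island. None of the 13 acinar genes was among them, and the median difference of acinar genes was −0.191 points (6 higher, 7 lower). Cela3b was at 51.7% ± 42.3 (18.2% to 100%, n = 5) after amphetamine, with overlapping groups and adjusted p = 0.958 by limma. Islet genes had a median difference of −2.29 points (3 higher, 7 lower). Ppy was at 13.2% ± 13.1 after amphetamine (0% to 30.0%) and at 0.758% in controls, and Ghrl at 88.5% ± 10.7 (77.8% to 100%) and 99.0%. Both had unadjusted p under 0.05 and an adjusted p of 0.958 by limma, and in both the groups overlapped. By sex, Ppy was at 11.8% ± 12.2 in females (n = 6) and at 0% in each of 5 males, of both treatment groups, and Ghrl was at 89.4% ± 9.83 in females and at 100% in each male. The part of sex in these differences was not tested. Acta2, smooth muscle actin, was at 12.5% ± 25 in the 4 control mice with reads and 74.2% ± 25 in 3 treated mice, with coverage of 18.8 and 14.8 and adjusted p = 0.958 by limma. It was at 12.5% ± 25 in the 4 males and 74.2% ± 25 in the 3 females with reads, so the level went with sex as much as with treatment, and the part of sex was not tested. The remaining lists had median differences between −10.3 points (liver) and 5.69 points (leukocytes), with 0 to 2 genes each at an unadjusted p under 0.05. Of the families, 8 of 99 olfactory and vomeronasal receptors, 0 of 9 keratin-associated proteins, 2 of 90 Zfp genes and 17 of 307 microRNA genes had an unadjusted p under 0.05, and 0 passed the adjusted test.

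Serotonin genes, whose signalling the study followed in the pancreas, were mostly low. Among 22 in the table, 12 had an island promoter (median 2.56%) and the 7 without one a median of 6.93%. Gata3, a transcription factor used by serotonin neurons, was at 0.179% ± 0.439 in controls (0% to 1.08%) and 5.11% ± 4.81 after amphetamine (1.08% to 12.8%). The groups met at 1.08%, and adjusted p was 0.958 by limma. By sex, Gata3 was at 3.92% ± 5.03 in females and 0.615% ± 0.903 in males, and the part of sex was not tested. The receptor Htr5a was at 1.89% ± 3.02 and 2.85% ± 6.2, and the receptors Htr1d and Htr3b (4 mice a group) were highest in controls at 54.8% ± 18.3 and 58.0% ± 29.7. Control coverage of Htr3b was 10.5. Htr1a, a receptor the study examined, was at 4.03% ± 3.36 in controls (0.952% to 9.93%, n = 6) and 8.46% ± 7.36 after amphetamine (0.833% to 17.7%, n = 5). The groups overlapped over most of their range, and the difference of 4.43 ± 3.22 points had an adjusted p of 0.958 by limma. For Htr1a the study reported hypomethylation near the gene start or promoter, the other direction from this window mean. Its methylKit tests of single sites and of promoters were not repeated here, so the measures differ. Gria1, a glutamate receptor subunit the study also examined, was at 1.24% ± 3.05 and 1.54% ± 2.21, and at 1.28% ± 2.07 in females and 1.49% ± 3.34 in males. Of the other genes named in the study for methylation, 5 had an island promoter.

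**Figure D5:**
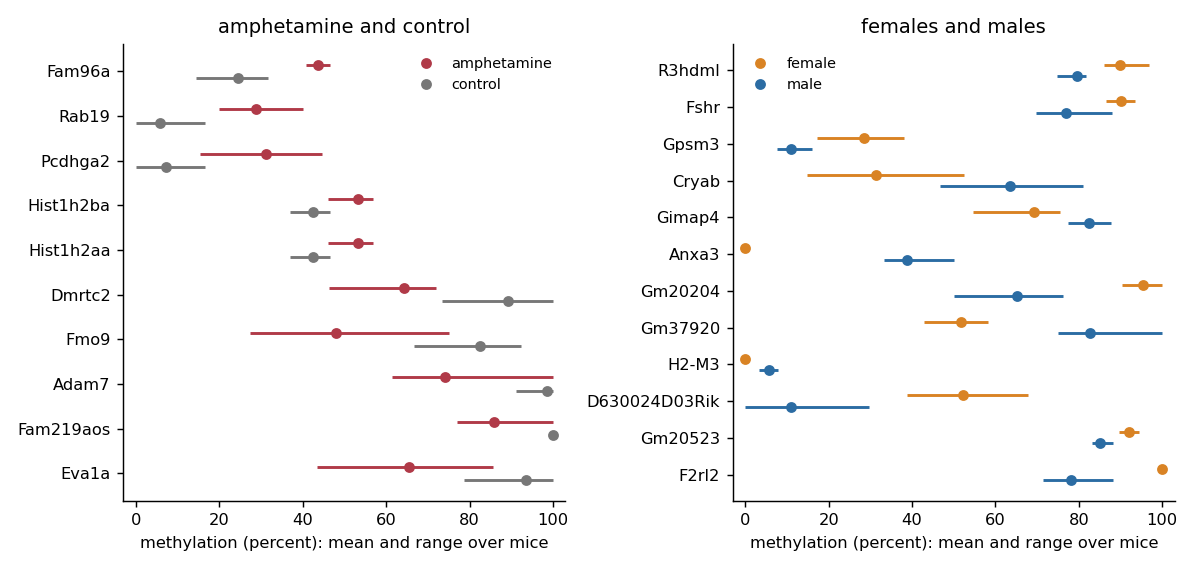
Methylation (percent) of named promoters without a listed island, as group mean (point) and lowest to highest mouse (line), for 5 amphetamine and 6 control mice on the left and 6 female and 5 male mice on the right, fewer where a mouse had no reads. Fam96a, Rab19 and Dmrtc2 are clear of overlap on the left, and on the right all promoters drawn except Fshr and Cryab.

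Females and males were compared over the same 11 mice. Of 8985 promoters without an island, 7 passed adjusted p under 0.05 by limma, 3 of them lower and 4 higher in females, beside 137 of 24293 promoters in all (0.564%), most of which lie off the autosomes since 11 of 23125 autosomal promoters passed. At this adjustment, made over the sex chromosomes too, 0.0476% of autosomal promoters passed. Adjusted over autosomal promoters alone, which was chosen after seeing the data, 1 of the 7 passed (Anxa3). An unadjusted p under 0.05 was seen at 482 promoters (5.36%), against 6.07% of all and 4.62% of autosomal promoters. The groups did not overlap at 24 promoters higher in females and 11 higher in males (0.324% and 0.149%), against 0.253% and 0.208% of autosomal promoters and 1.33% and 0.214% of all promoters. The median difference was 0.233 points, and it was −0.0218 points at island promoters.

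Anxa3, a calcium-dependent membrane-binding protein, was at 0% in all 6 females and at 38.9% ± 9.62 (33.3% to 50%) in the 3 males with reads. Coverage was 21.2 and 13.2, so that 0% in females allows up to 2.36%, and adjusted p was 0.00313 by limma (0.0336 over the autosomes). H2-M3, a non-classical MHC class I gene, was at 0% in 6 females and at 5.56% ± 2.17 (3.33% to 7.89%) in 5 males, a small difference at a coverage of 217.0 and 187.0, with adjusted p = 0.0306 by limma and 0.450 over the autosomes. F2rl2, a protease-activated receptor, was at 100% in 5 females and 78.0% ± 8.12 (71.4% to 88.3%) in 4 males. The long noncoding RNA D630024D03Rik was at 52.3% ± 9.68 (38.7% to 67.9%) in females and 10.9% ± 15 (0% to 29.5%) in males. Gm20204 was at 95.4% ± 4.38 and 65.2% ± 10.1, Gm37920 at 51.6% ± 5.67 and 82.7% ± 9.98, and the pseudogene Gm20523 at 92.0% ± 1.95 and 85.2% ± 1.99 in females and males. In each of these 7 every female lay on the same side of every male with reads. Adjusted p for the 5 given without one was between 0.0148 and 0.0418 by limma and between 0.248 and 0.506 over the autosomes.

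Other genes with the smallest p for sex did not pass the test. Higher in females in mean were R3hdml (89.9% ± 4.37 against 79.5% ± 3.09), Fshr, the receptor of follicle-stimulating hormone (90.1% ± 2.85 against 77.0% ± 7.17), and Gpsm3, a modulator of G protein signalling (28.4% ± 8.94 against 10.9% ± 3.68). Higher in males were the small heat shock protein Cryab (31.3% ± 13.7 in females, 63.4% ± 14.2 in males) and Gimap4, a GTPase of lymphocytes (69.3% ± 7.61, 82.3% ± 4.32). Adjusted p lay between 0.114 and 0.344 by limma. Females and males did not overlap for R3hdml, Gpsm3 and Gimap4 and overlapped for Fshr and Cryab. In the 13 lists, 13 of 129 promoters (10.1%) had an unadjusted p under 0.05 for sex and 0 passed the adjusted test. Treatment and sex were tested over the same mice, and the amphetamine group had 3 females to 2 males.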

How the data were processed

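Reduced representation bisulfite libraries from 11 newborn pancreata (MspI and TaqI digestion, single-end reads of 50 bp) were aligned to mm10 by the authors with Bismark in the NextFlow methylseq pipeline and summarised per region with RnBeads. The submitters' processing notes list Bismark, limma and methylKit. The deposited tables hold, per promoter, gene and 5 kb tile, the authors' mean methylation fraction of each group, its SD, lowest and highest mouse, and the number of mice without reads. Deposited coverage, a signal not normalized for depth, was read as the total of methylation calls at all CpG sites of the region. Sites in a promoter were thus averaged by the authors before any test, and promoters with few sites or reads have less precise levels. The authors' own comparison columns (differences, log ratios, p-values, false discovery rates and ranks) were not used.

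Fractions were multiplied into percent. Autosomal promoters that overlapped no listed island were kept where mean coverage reached 10 in each treatment group. Groups were compared with a limma (3.58.1, R 4.3.3) moderated two-sided test computed from group means, SDs and numbers of mice, fitted on the whole promoter table with at least 2 mice a group, and p-values were adjusted by Benjamini-Hochberg over all promoters tested. The study's own test on single mice was not repeated, since levels of single mice were not analysed here, and sex was not a covariate. The method was tested on simulated data. GC content, CpG sites, cut sites and sequences came from the GRCm38 genome and its gene annotation, read with Python 3.11.15, numpy 2.4.6 and pandas 2.3.3, and a CpG counted as within reach up to 50 bp from a cut site. Figures used matplotlib 3.10.9. Limits on values of 0 used 3 counts and cover counting error only.

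Named genes were all acinar and islet genes, the 2 lowest and 2 highest of each other list, the 10 least methylated and 5 most variable promoters with coverage of at least 50 and reads in all mice, the 5 higher and 5 lower (treatment) or 3 and 3 (sex) of smallest p with a difference of at least 10 points, called promoters and genes the study named. Predicted symbols were left out of the ranked choices. Some genes that this rule names are not reported here. The members and the gene lists were chosen with earlier results of these data known. Alternatives were other coverage minimums, promoters without an island-like stretch, with reads in all mice or of protein-coding genes, a prior variance following the mean, an SD above 0 in both groups, and the study's thresholds (fold change above 1.5, difference above 25 points).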

Additional observations from a re-analysis of the deposited data

How the results depend on the processing

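The median control methylation was 43.3% for protein-coding genes alone. Without promoters that hold an island-like stretch, 284 were below 20%. For treatment, 2 promoters passed the adjusted test with no minimum on coverage and 461 at an unadjusted p. For sex, where 7 passed, 3 did without an island-like stretch, 3 among protein-coding genes, 4 where the SD was above 0 in both groups, 3 with the study's thresholds, 482 at an unadjusted p, and 1 when adjusted over autosomal promoters only, an alternative chosen after seeing the data. Promoters whose groups did not overlap numbered 10 for treatment and 15 for sex without an island-like stretch, and 13 and 12 among protein-coding genes. In these smaller sets fewer promoters were counted (4404 and 3875 of 8998). With a prior variance following the mean, D630024D03Rik (difference 41.4 points) and Gm20523 (6.87 points) no longer passed for sex. The other 36 alternatives for the main results kept the direction and the side of the threshold or stayed within the allowed spread. Some of these could not differ. For the adjusted test of treatment, the study's thresholds and smaller sets of these promoters could only leave 0 passing. For named genes the prior variance following the mean was the only alternative, and it cannot change a difference. Of 25 named genes, 23 stayed on the same side of the threshold. The named treatment genes passed under neither setting, and the adjusted p of Fam96a went from 0.241 to 0.845 by limma.

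Leaving out each mouse in turn and a fit adjusted for sex were not run, because the tables hold group summaries only. No paired analysis was possible because the columns carry group means with no replicate numbers. Depth limits single promoters: at a coverage of 10 to 20 the median control SD was 16.2 points. An SD of 0 in a group was seen at 674 promoters, of which 271 were below 20% and 342 above 80% in controls. Some of these, such as Plau, were well covered.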

Other observations

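Copies of the 5S ribosomal RNA gene, which encodes a small RNA of the large ribosomal subunit, split by place. The 40 copies in the array on chromosome 8 (chr8:123538405-123623546, mm10) had control means from 22.1% to 41.9% with a median of 32.9%, and a median SD over 6 mice of 3.02 points. The 32 copies elsewhere, on 18 chromosomes, had a median of 76.3%, from 25.7% to 98.1%, and 13 were above 80%. After amphetamine the array had a median of 33.0%, with 29 copies higher and 11 lower than in controls, 2 at an unadjusted p under 0.05 and 0 passing the adjusted limma test. Near-identical copies share reads, so the level of any single copy is uncertain, and the copies are not independent. Median coverage was 264.75 in the array and 50.2 elsewhere.

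Cytochrome P450 genes (symbol Cyp), which oxidise steroids and foreign compounds, lay at both ends. Of 24 promoters with this symbol, 9 were below 20% and 12 above 80% in controls. Those above 80% included the pseudogenes Cyp21a2-ps, Cyp4a30-ps and Cyp2d41-ps. Those below 20% included Cyp4x1os, named as the opposite strand of Cyp4x1 and with the same values. Cyp4x1 was at 0%, Cyp2d22 at 0.424% and Cyp1a1 at 4.94%, and Cyp2c55 and Cyp21a1 at 95.6% and 97.0%. Small nucleolar RNA genes (symbol Snord), which guide methylation of ribosomal RNA, had a median of 89.4% over 20 promoters, with 5 below 20% and 12 above 80%. These genes were chosen after their values were seen.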
